A study of Mus musculus with 8 samples.

Results

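Microglia are the resident macrophages of the brain, and the 38 genes described here mark these cells, their activation and the complement system that they help to make. The genes were chosen by name from the known biology of microglia, with earlier results of these data known. Each symbol matched exactly 1 of the 22337 rows of the deposited expression table. They cover homeostatic receptors and transcription factors (10 genes), general myeloid markers (6), ITAM adaptors and their partner receptors (4), pattern recognition and co-stimulation (4), complement (6), perivascular macrophage markers (2) and inflammatory and lectin genes (6). RNA was sequenced from the nucleus accumbens, the reward-related ventral striatum, of C57BL/6 males exposed to morphine (4 libraries) or to saline (4 libraries). Nothing in the labels sets the groups apart other than this treatment, and the exposure is described as chronic. The sources used here give no dose, schedule, age or time of dissection. Whether each library came from its own animal is not labelled. The p-values set the difference between groups against the scatter of these libraries, and that scatter may be technical.

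In the healthy brain, microglia survey the tissue with fine processes, sense neuronal fractalkine through CX3CR1 and released nucleotides through P2Y receptors, and depend on signals through CSF1R to survive. TREM2 and the Fc receptors pass their signals through the ITAM adaptors TYROBP and FCER1G. In the brain C1q comes mainly from microglia and tags material for removal, while C4, C3 and the C3a receptor act further along the classical complement cascade. Morphine has been studied in relation to microglia because of reports that opioids act on TLR4 and its co-receptor MD-2, whose gene is Ly96.

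PU.1, the product of the member Spi1, is the transcription factor that most myeloid genes depend on, and its core letters GAGGAA were searched in the 250 bases before each RefSeq gene start (GRCm38.p6). Both strands were read, so that a match on the other strand appears as TTCCTC. A window was at hand for 27 of the 38 genes. The core letters stood in 14 of these 27 windows (51.9%), and in 11 of the 19 windows that belong to genes high enough to be tested (57.9%). They stood in 25.9% of the windows of all 27025 RefSeq genes in the table and in 25.7% of those of 9833 tested genes. The composite motif of PU.1 with an IRF protein, whose letters can overlap the core, was found in 0 of the 27 windows and in 2.68% of all windows. A match is only a run of letters and not a shown binding site. The last 120 bases before the start are printed for 4 of the 14 genes with a match. These have different roles: C1qb (a C1q chain), Trem2 (a lipid-sensing receptor), P2ry13 (a nucleotide receptor) and Itgam (the CD11b integrin chain). They lie at chr4:136886201-136886320 on the minus strand, chr17:48346281-48346400 on the plus strand, chr3:59210883-59211002 on the minus strand and chr7:128062520-128062639 on the plus strand. Capitals mark the PU.1 core letters in either orientation, and the expression values of the 4 genes follow with their groups.
C1qb: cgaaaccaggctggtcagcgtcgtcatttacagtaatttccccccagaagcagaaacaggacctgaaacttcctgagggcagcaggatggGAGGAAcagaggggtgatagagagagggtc
Trem2: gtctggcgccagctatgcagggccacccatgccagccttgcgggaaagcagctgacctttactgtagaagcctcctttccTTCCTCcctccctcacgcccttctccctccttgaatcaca
P2ry13: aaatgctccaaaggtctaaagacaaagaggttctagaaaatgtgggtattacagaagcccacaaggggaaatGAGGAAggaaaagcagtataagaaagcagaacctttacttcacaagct
Itgam: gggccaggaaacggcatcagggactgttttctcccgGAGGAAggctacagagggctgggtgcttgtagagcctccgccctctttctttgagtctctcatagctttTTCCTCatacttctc

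Expression was given as FPKM, fragment counts scaled for transcript length and library size, so levels can be compared between genes. The values summed to between 486547.6 and 501627.6 per morphine library and between 480003.6 and 540104.1 per saline library, and read depth is unknown. Of the 12536 genes tested, 316 (2.52%) passed an adjusted p of 0.05 in limma, 130 higher and 186 lower with morphine (41.1% higher). After the genes of the mitochondrial genome were taken out and each library was rescaled, 346 passed and 21.4% of them were higher. The summed FPKM of 15 striatal projection neuron markers lay between 289 and 440 in morphine libraries, and between 1070 and 5220 in saline libraries, with the highest sum in saline replicate 3. That library had the lowest value of 15 of the 28 tested microglia and complement genes among the saline libraries. The count and median over all 28 genes are therefore also given without it below, and those of the single roles are not. Mitochondrial transcripts took 6.10 to 7.94% of the FPKM sum in morphine libraries and 9.09 to 12.6% in saline libraries.

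No microglia or complement gene passed the threshold in either direction. Of the 38 genes, 28 reached an FPKM of 1 in at least 4 libraries and were tested, and limma called 0 of them at an adjusted p under 0.05, beside the 2.52% called among all genes (1.04% higher and 1.48% lower). At an unadjusted p under 0.05 there were 3 of 28 (10.7%), Tyrobp, Cd68 and C4b, beside 20.1% of all tested genes. The median log2 change of the 28 genes, morphine minus saline on the scale of log2(FPKM + 1), was −0.09, with 8 positive and 20 negative changes, and over all tested genes the median was 0.01. The median size of the change was 0.13 for these genes and 0.17 for all tested genes, and the median SD within groups was 0.199 and 0.215 on the same scale. For 16 of the 28 genes (57.1%) the 95% interval of the change lay within 0.5 on the log2 scale on either side of 0, which is 1.41-fold, and this held for 45.7% of all tested genes. The other 12 genes have intervals that reach beyond this size. Without saline replicate 3 the count stayed at 0 (3 at an unadjusted p under 0.05) and the median was −0.19, and without saline replicate 2, the library with the highest value of 10 of the 28 genes, it was −0.058 with 1 gene at an unadjusted p under 0.05. In bulk tissue, a change in the number of microglia and a change in RNA per microglial cell cannot be told apart.

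**Figure D1:**
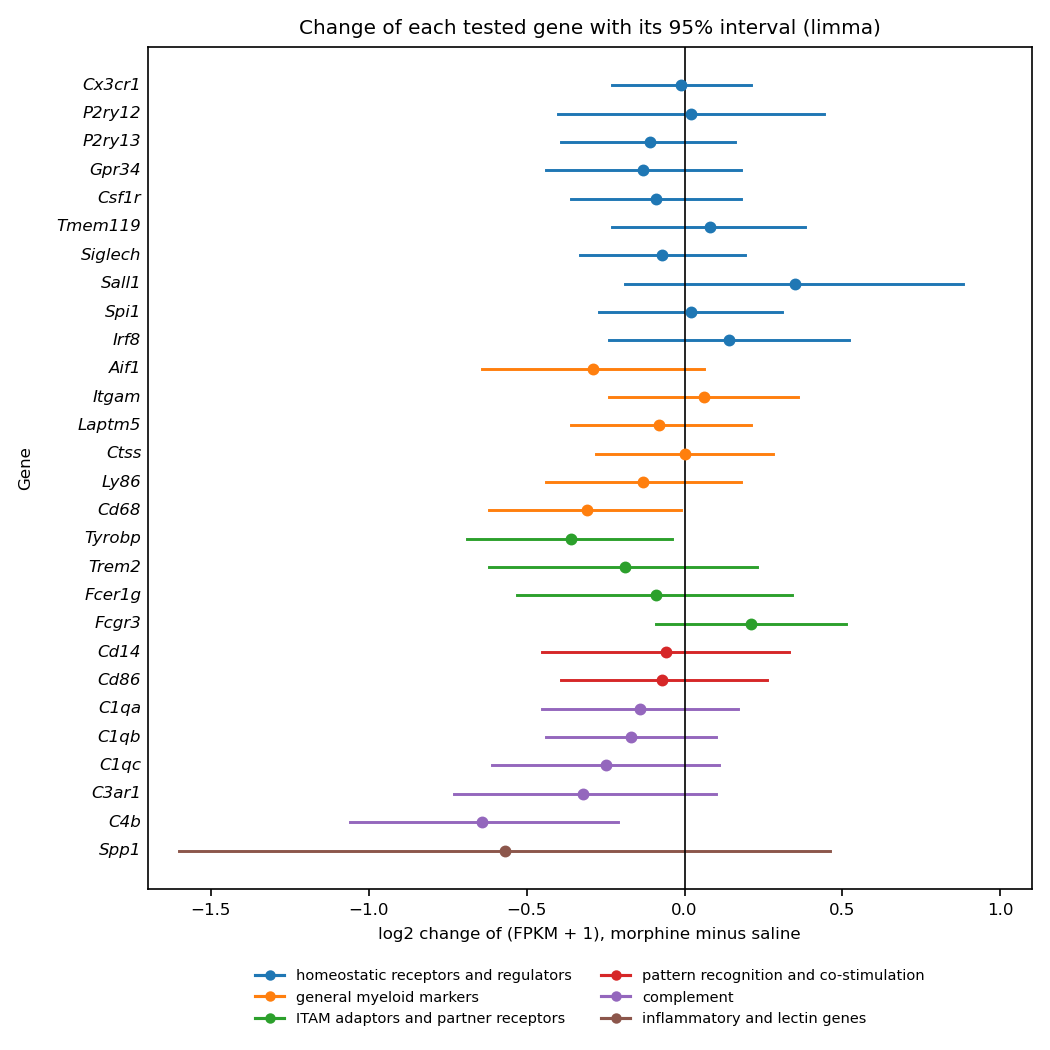
Change of each of the 28 tested genes, morphine minus saline in log2(FPKM + 1) on the horizontal axis, with limma's 95% interval as a bar; colours give the roles. The homeostatic genes lie around 0, the 5 tested complement genes all lie below 0, and Spp1 has the widest interval (−1.60 to 0.46).

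The genes of homeostatic surface receptors, which define resting microglia, held no call in either direction. Cx3cr1, the fractalkine receptor gene, had 37.9, 34.9, 34.3 and 34.8 FPKM in morphine libraries, against 34.6, 37.1, 31.9 and 39.6 FPKM in saline libraries (log2 change −0.01 ± 0.10 SE, 95% interval −0.23 to 0.21). P2ry12, the receptor for ADP that steers microglial processes, had 49.8, 58.4, 48.5 and 48.7 FPKM in morphine libraries, against 54.2, 63.9, 32.2 and 57.9 FPKM in saline libraries (0.02 ± 0.19, interval −0.40 to 0.44). The groups overlap in both genes, and the low P2ry12 value belongs to saline replicate 3. Csf1r, the receptor for the survival factors CSF1 and IL-34, averaged 52.8 ± 4.94 FPKM in morphine libraries and 56.6 ± 8.61 FPKM in saline libraries (SD, n = 4 each; log2 change −0.09 ± 0.12 SE). Tmem119, a membrane protein gene widely used to tell microglia from other macrophages, averaged 29.2 ± 2.50 FPKM in morphine libraries and 27.9 ± 5.30 FPKM in saline libraries (0.08 ± 0.14). The remaining surface genes were Siglech, a sialic acid-binding lectin gene, P2ry13, and Gpr34, a lysophospholipid receptor gene. Siglech averaged 24.6 ± 1.14 FPKM in morphine libraries and 26.0 ± 3.95 FPKM in saline libraries. P2ry13 averaged 11.3 ± 0.714 FPKM in morphine libraries and 12.3 ± 1.68 FPKM in saline libraries. Gpr34 averaged 12.3 ± 1.34 FPKM in morphine libraries and 13.6 ± 2.19 FPKM in saline libraries (log2 change −0.13 ± 0.14 SE, limma adjusted p = 0.656).

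These receptors differ in where they sit in the genome and in what could share their reads. P2ry12 (ENSMUSG00000036353, chromosome 3, 59216272 to 59262871, minus strand, GRCm38) and P2ry13 (ENSMUSG00000036362, chromosome 3, 59207892 to 59210882, minus strand) lie side by side inside Med12l, which runs on the other strand. P2ry12 shares exon sequence with it. The protocol names no strand marking, so reads of this stretch cannot be told apart, and Med12l itself was listed between 3.21 and 5.26 FPKM in morphine libraries and between 2.69 and 6.84 FPKM in saline libraries. The ratio of P2ry12 to Cx3cr1 FPKM was 1.31 to 1.67 in morphine libraries and 1.01 to 1.72 in saline libraries, with the lowest ratio in saline replicate 3. The ratio of P2ry13 to P2ry12 was 0.209 to 0.233 in morphine libraries, and in saline libraries it was 0.221, 0.224, 0.320 and 0.221. Saline replicate 3 thus has the lowest P2ry12 relative both to Cx3cr1 and to P2ry13. Csf1r shares exon sequence with Hmgxb3 on the other strand.

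The transcription factor genes of the microglial program did not pass either. Spi1, which encodes PU.1, averaged 4.88 ± 0.564 FPKM in morphine libraries and 4.79 ± 0.456 FPKM in saline libraries (SD, n = 4 each; log2 change 0.02 ± 0.13 SE). Irf8, a partner of PU.1, averaged 5.22 ± 1.04 FPKM in morphine libraries and 4.65 ± 1.02 FPKM in saline libraries (0.14 ± 0.17). Sall1, a zinc finger gene that keeps microglia in their resting identity, had 2.04, 3.33, 2.38 and 5.65 FPKM in morphine libraries, against 1.78, 1.89, 2.44 and 3.10 FPKM in saline libraries. Its log2 change was 0.35 ± 0.24 (SE; limma adjusted p = 0.462). Morphine replicate 4 holds the top value, and without that library the change was 0.12. Over the 10 homeostatic genes, 5 changes were positive and 5 negative, with a median of 0.01, and 0 were called (0 at an unadjusted p under 0.05). Under quantile normalization that median was −0.06, and with mitochondrially encoded genes removed it was −0.05, so no direction can be given for this group.

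**Figure D2:**
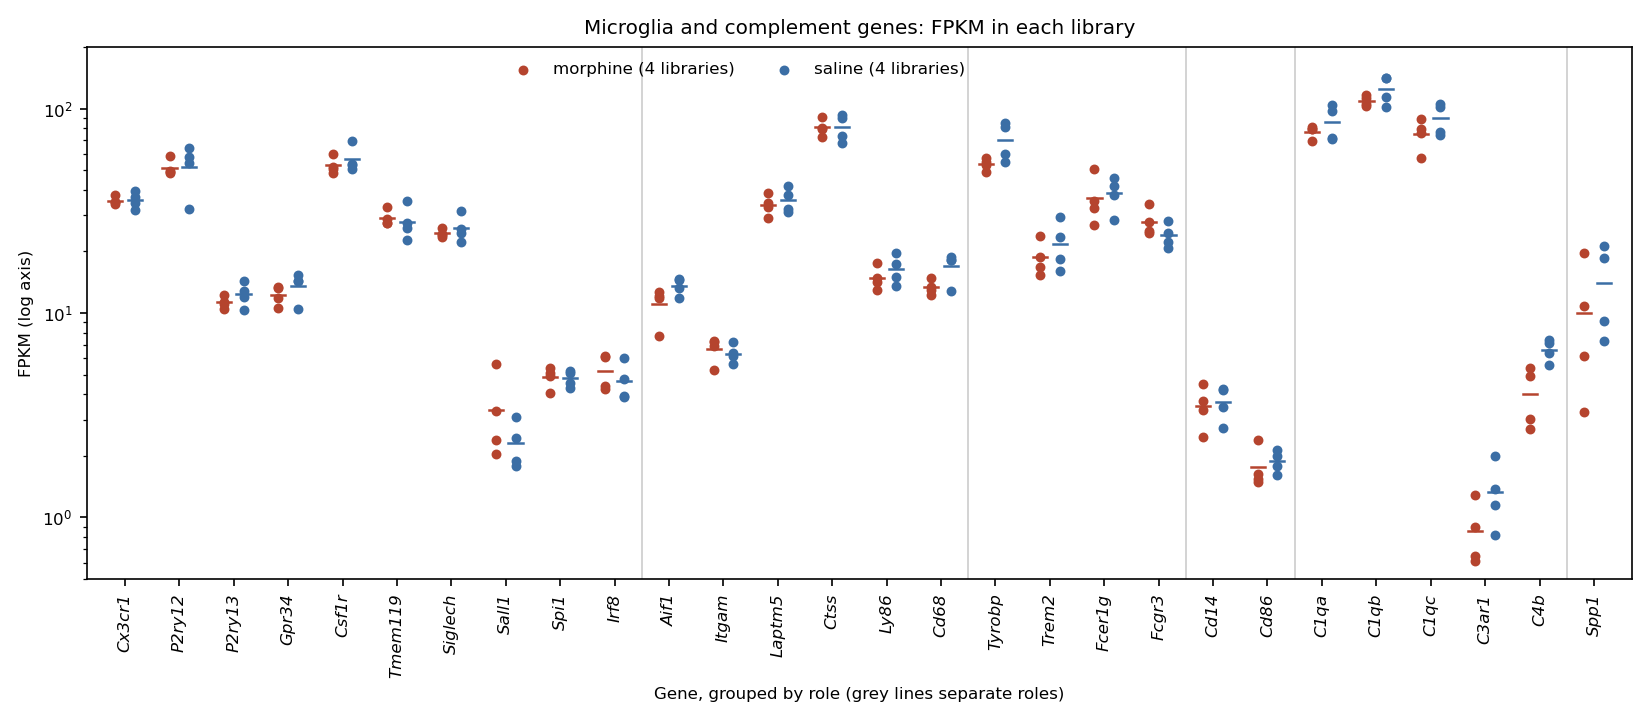
FPKM (log axis) of the 28 tested genes in each of the 4 morphine libraries (red, left of each pair) and the 4 saline libraries (blue, right), with a bar at each mean; grey lines separate the roles. The groups overlap in 27 genes and separate in C4b, at 2.72 to 5.38 FPKM in morphine libraries and 5.54 to 7.34 FPKM in saline libraries.

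No general myeloid marker passed the threshold. Ctss, a lysosomal protease of antigen processing and the most abundant of this group, had 79.2, 90.7, 72.7 and 80.5 FPKM in morphine libraries, against 89.7, 93.1, 68.0 and 73.4 FPKM in saline libraries (log2 change 0.00 ± 0.13 SE, interval −0.28 to 0.28). Cd68, a lysosomal glycoprotein gene often read as a sign of phagocytic activity, had 12.96, 14.9, 12.2 and 13.4 FPKM in morphine libraries, against 18.3, 18.2, 18.8 and 12.7 FPKM in saline libraries. Saline replicate 4 lies within the morphine range, and the other saline values lie above it. The log2 change of Cd68 was −0.31 ± 0.14 (SE), with an interval of −0.62 to −0.01, and it did not pass (limma adjusted p = 0.240). Aif1, the IBA1 gene used to stain microglia, had 12.2, 11.9, 12.7 and 7.70 FPKM in morphine libraries, against 14.7, 14.6, 11.9 and 13.2 FPKM in saline libraries (−0.29 ± 0.16, adjusted p = 0.341). Laptm5 and Ly86 had log2 changes of −0.08 ± 0.13 and −0.13 ± 0.14 (SE). Itgam averaged 6.67 ± 0.947 FPKM in morphine libraries and 6.33 ± 0.657 FPKM in saline libraries (SD, n = 4 each; 0.06 ± 0.14). Of these 6 genes, 2 changes were positive and 4 negative, with a median of −0.10 and 0 calls.

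The adaptor gene Tyrobp had the second smallest p of all 28 genes, and none of the 4 ITAM genes passed. Tyrobp (ENSMUSG00000030579, chromosome 7, 30413760 to 30417585, plus strand), which encodes the signalling adaptor of TREM2, had 54.5, 48.8, 57.5 and 53.0 FPKM in morphine libraries, against 84.7, 81.1, 54.8 and 59.9 FPKM in saline libraries. Saline replicates 1 and 2 stand well above the rest, and saline replicate 3 lies within the morphine range. The log2 change was −0.36 ± 0.15 (SE), with an interval of −0.69 to −0.04, and it did not pass (limma adjusted p = 0.202). Trem2 had 15.4, 18.8, 23.9 and 16.8 FPKM in morphine libraries, against 29.3, 23.4, 18.4 and 16.1 FPKM in saline libraries (−0.19 ± 0.19, adjusted p = 0.618). Fcer1g, the adaptor of activating Fc receptors, averaged 36.4 ± 10.2 FPKM in morphine libraries and 38.5 ± 7.51 FPKM in saline libraries (SD, n = 4 each). Fcgr3, a low-affinity receptor for IgG whose relatives may share reads with it, had 24.7, 27.7, 25.2 and 34.3 FPKM in morphine libraries, against 28.1, 24.7, 20.8 and 22.3 FPKM in saline libraries (0.21 ± 0.14, adjusted p = 0.42). The ratio of Tyrobp to Cx3cr1 FPKM was 1.398 to 1.675 in morphine libraries and 1.52 to 2.45 in saline libraries, and the groups overlap. The ratio of Trem2 to Tyrobp was 0.282 to 0.415 in morphine libraries and 0.269 to 0.346 in saline libraries. Of the 4 genes, 1 change was positive and 3 were negative, with a median of −0.14.

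The C1q chain genes had the highest mean FPKM of the 38 genes, and none of them passed. C1qa, C1qb and C1qc encode the A, B and C chains of C1q, the complex that starts the classical pathway. They lie next to each other on the minus strand of chromosome 4 (C1qb at 136880129 to 136886187, C1qc at 136889804 to 136893065 and C1qa at 136895917 to 136898803, GRCm38). C1qb, the highest, had 103, 105, 112 and 117 FPKM in morphine libraries, against 141, 141, 101 and 114 FPKM in saline libraries (log2 change −0.17 ± 0.12 SE, interval −0.44 to 0.10). C1qa had 81.2, 69.1, 79.1 and 79.2 FPKM in morphine libraries, against 104, 97.8, 71.3 and 71.9 FPKM in saline libraries (−0.14 ± 0.14, interval −0.45 to 0.17). C1qc had 57.4, 75.6, 79.0 and 88.8 FPKM in morphine libraries, against 102, 105, 77.2 and 74.5 FPKM in saline libraries (−0.25 ± 0.16, interval −0.61 to 0.11). In each chain gene saline replicates 1 and 2 are higher than every morphine library, and saline replicates 3 and 4 lie within the morphine range or, for C1qb in saline replicate 3, just below it. The ratio of C1qa to C1qb was 0.657 to 0.786 in morphine libraries and 0.632 to 0.738 in saline libraries. The ratio of C1qc to C1qb was 0.555 to 0.762 in morphine libraries and 0.655 to 0.762 in saline libraries.

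**Figure D3:**
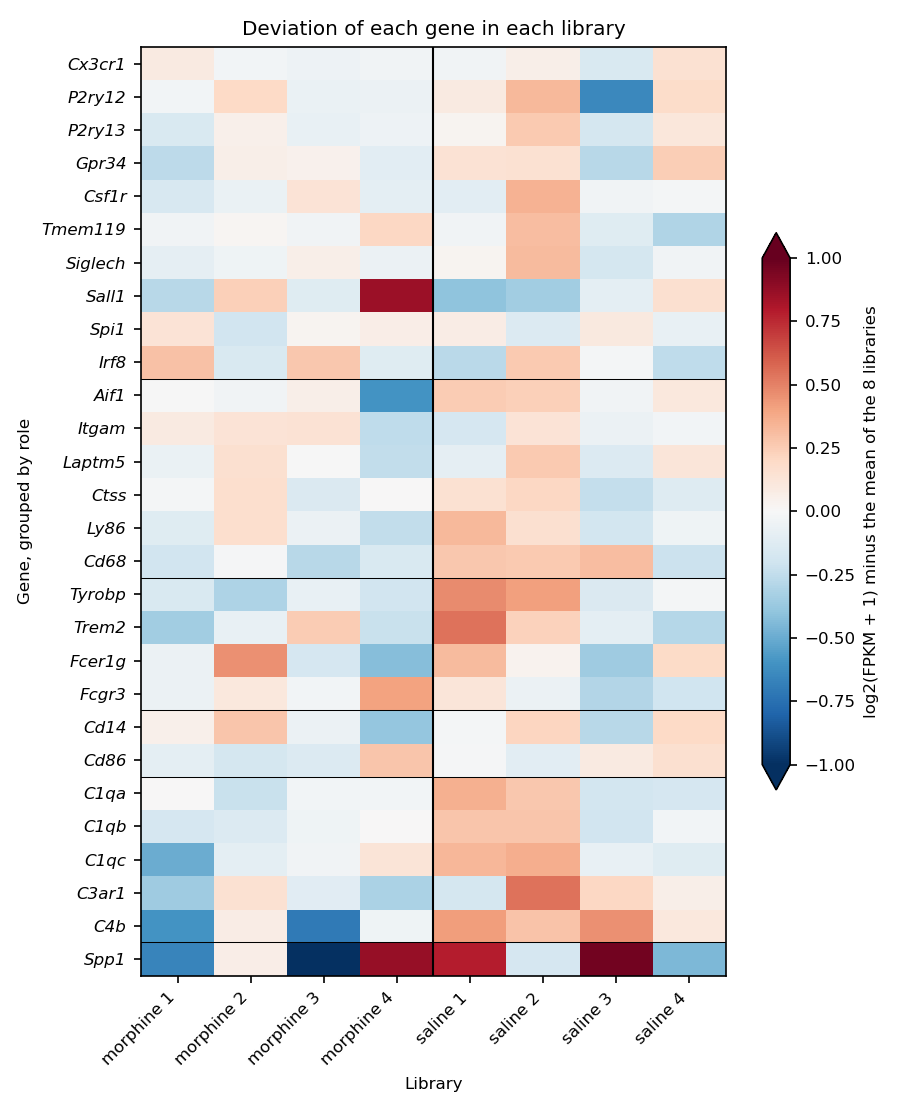
Deviation of log2(FPKM + 1) of each tested gene (rows, grouped by role) from its mean over the 8 libraries (columns, morphine left, saline right); red is above and blue below the mean, and colours end at 1 in either direction. Saline replicates 1 and 2 are above the mean in Tyrobp, Trem2 and the C1q chain genes, and saline replicate 3 is below it in P2ry12.

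Of the complement genes downstream of C1q, C4b had the smallest p of any tested gene of the 38, and it did not pass. C4b (ENSMUSG00000073418, chromosome 17, 34728380 to 34743882, minus strand), which encodes the C4 protein that C1 cleaves, had 3.02, 5.38, 2.72 and 4.91 FPKM in morphine libraries, against 7.13, 6.40, 7.34 and 5.54 FPKM in saline libraries. All 4 morphine values lie below all 4 saline values, which was the case in the low direction for 6.1% of all tested genes (6.56% in the high direction, 12.7% in either), and no other tested gene of the 38 had separate groups. The log2 change was −0.64 ± 0.19 (SE), with an interval of −1.06 to −0.21 (limma adjusted p = 0.104; 0.0802 to 0.252 over 15 alternative settings). C4b has a near-identical neighbour, C4a, so its reads may be shared, and astrocytes and oligodendrocytes make C4 as well as microglia do. C3ar1, the receptor for the C3a fragment, had 0.61, 1.29, 0.90 and 0.65 FPKM in morphine libraries, against 0.82, 2.00, 1.38 and 1.15 FPKM in saline libraries (−0.32 ± 0.19, adjusted p = 0.373). C3, the central component, was below an FPKM of 1 in every library, at 0 to 0.18 FPKM in morphine libraries and 0.01 to 0.24 FPKM in saline libraries. All 5 tested complement genes had negative changes, with a median of −0.25 and 0 calls (1 at an unadjusted p under 0.05), and this held under each scaling tried.

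The genes for sensing of microbial products and for co-stimulation were low, and none passed. Cd14, a co-receptor for lipopolysaccharide, averaged 3.52 ± 0.846 FPKM in morphine libraries and 3.68 ± 0.715 FPKM in saline libraries (SD, n = 4 each; log2 change −0.06 ± 0.18 SE). Cd86, a co-stimulatory ligand gene, averaged 1.77 ± 0.426 FPKM in morphine libraries and 1.88 ± 0.233 FPKM in saline libraries (−0.07 ± 0.15). Both changes were negative (median −0.06), and under quantile normalization both were positive (median 0.03). Tlr4 did not reach the level for testing, with 0.43, 0.44, 0.76 and 0.33 FPKM in morphine libraries, against 0.35, 0.53, 0.42 and 0.54 FPKM in saline libraries. The groups of Tlr4 overlap fully, and without the filter on low values its adjusted p was 0.917. Tlr2, the receptor for bacterial lipoproteins, was at 0.27 to 1.02 FPKM in morphine libraries and 0.53 to 1.29 FPKM in saline libraries. Ly96, which encodes the co-receptor MD-2 that TLR4 needs, averaged 2.42 ± 0.827 FPKM in morphine libraries and 2.59 ± 0.998 FPKM in saline libraries (SD, n = 4 each; −0.06 ± 0.24, limma adjusted p = 0.919).

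Cytokine and chemokine genes that microglia switch on in inflammation were near the bottom of the scale in both groups. Tnf was listed at 0 in all 4 morphine libraries and in saline replicates 1, 2 and 4, and at 0.05 FPKM in saline replicate 3. Il1b was at 0 to 0.46 FPKM in morphine libraries and 0.10 to 0.46 FPKM in saline libraries. Ccl3 had 0, 0, 0.09 and 0.09 FPKM in morphine libraries, against 0.26, 0.18, 0.18 and 0.53 FPKM in saline libraries. Its groups do not overlap, but these values are low and read depth is unknown. Without a filter Ccl3 did not pass (limma adjusted p = 0.146), where 0.0867% of 19607 genes did. Its neighbour Ccl4 was at 0 to 0.11 FPKM in morphine libraries and 0 to 0.53 FPKM in saline libraries. Lgals3, a galactose-binding lectin gene of activated phagocytes, was at 0.20 to 0.48 FPKM in morphine libraries and 0.15 to 0.99 FPKM in saline libraries. Spp1, the osteopontin gene, which neurons and oligodendrocytes also express, had 6.16, 10.9, 3.26 and 19.8 FPKM in morphine libraries, against 18.5, 9.09, 21.2 and 7.30 FPKM in saline libraries. Each group of Spp1 holds high and low libraries, and its log2 change of −0.57 ± 0.46 (SE) did not pass (adjusted p = 0.537).

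The perivascular macrophage markers, which belong to macrophages along vessels and not to microglia, were low and uneven. Mrc1, the mannose receptor gene, had 0.91, 0.96, 0.53 and 0.31 FPKM in morphine libraries, against 1.58, 0.71, 1.89 and 0.41 FPKM in saline libraries. Cd163, a haemoglobin scavenger receptor gene, had 0.26, 0.20, 0.07 and 0 FPKM in morphine libraries, against 0.48, 0.16, 2.55 and 0.89 FPKM in saline libraries. Its highest value is again in saline replicate 3, and without the filter its adjusted p was 0.285 (0.0424 unadjusted). A separate list of 10 border macrophage and monocyte markers, of which 3 were tested, had no call, and its summed FPKM was 4.13 to 7.79 in morphine libraries and 6.22 to 18.3 in saline libraries. Its member Pf4, a chemokine gene, had 0.79, 0.63, 1.59 and 1.07 FPKM in morphine libraries, against 8.04, 1.77, 5.58 and 2.49 FPKM in saline libraries (log2 change −1.30 ± 0.34 SE, limma adjusted p = 0.0720). No marker of this list was at 0 in all 8 libraries.

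Ordered by mean FPKM over the 8 libraries, C1qb (117) came first, followed by C1qc (82.4), C1qa (81.7), Ctss (80.9), Tyrobp (61.8), Csf1r (54.7) and P2ry12 (51.7). C1qc, C1qa and Ctss do not differ beyond the spread of their libraries, nor do Csf1r and P2ry12. The lowest tested genes were Cd14 (3.60), Sall1 (2.83), Cd86 (1.82) and C3ar1 (1.1).

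Genes that other cells make to signal to microglia held the only call among the related lists. Of 9 ligand genes 8 were tested, and 1 rose, 0 fell and 7 did not pass (median log2 change 0.14). Among all tested genes 1.04% were called higher and 1.48% lower. Of the 8 changes 5 were positive and 3 negative, with 4 at an unadjusted p under 0.05 in limma. Cd200, the gene for a neuronal surface protein that restrains microglia through its receptor, had 78.1, 74.0, 73.2 and 66.9 FPKM in morphine libraries, against 56.6, 48.1, 49.8 and 57.4 FPKM in saline libraries. All morphine values lie above all saline values (log2 change 0.46 ± 0.10 SE, limma adjusted p = 0.0462), as in 6.56% of all tested genes. Over 15 alternative settings the change of Cd200 was 0.38 to 0.50 and its adjusted p 0.0438 to 0.139, under 0.05 in 3 of them. The adjusted p was 0.105, 0.0867, 0.139 and 0.0917 without morphine replicates 1 to 4, and 0.065, 0.119, 0.0634 and 0.0438 without saline replicates 1 to 4. With the replicate block it was 0.102. Of 9 tested cortical glutamatergic neuron markers 1 was called higher and 8 did not pass (3 at an unadjusted p under 0.05, 7 changes positive, median 0.84). Their summed FPKM was 269 to 337 in morphine libraries and 46.0 to 240 in saline libraries, and their part in this result was not tested. Cx3cl1, the fractalkine gene, had 348, 278, 397 and 397 FPKM in morphine libraries, against 278, 278, 418 and 245 FPKM in saline libraries (0.23 ± 0.18, adjusted p = 0.5). Il34 averaged 54.8 ± 6.97 FPKM in morphine libraries and 44.8 ± 4.53 FPKM in saline libraries (SD, n = 4 each; 0.28 ± 0.12, adjusted p = 0.227). Csf1 averaged 4.73 ± 0.239 FPKM in morphine libraries and 4.03 ± 0.546 FPKM in saline libraries (0.19 ± 0.13, adjusted p = 0.425). Tgfb1, whose product keeps microglia in their resting state, was at 0.07 to 0.31 FPKM in morphine libraries and 0.03 to 0.29 FPKM in saline libraries. In the ligand genes Pros1 and Tgfb2 all morphine values lie below all saline values, and neither passed. Their log2 changes were −0.46 ± 0.13 and −0.32 ± 0.12 (SE; limma adjusted p = 0.0892 and 0.183).

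No further complement gene, several of which astrocytes and vessel cells make, was called either. Of 24 listed genes 13 were tested, none passed (5 at an unadjusted p under 0.05 in limma), and the median log2 change was −0.02. Of these changes 6 were positive and 7 negative. The groups were separate with morphine higher in 2 genes and lower in 3, beside 6.56% and 6.1% of all tested genes. Clu, the gene for clusterin, which blocks the terminal complex and is made by astrocytes, and Serping1, the gene for the C1 inhibitor, were chosen after their values were seen. Clu averaged 700 ± 73.5 FPKM in morphine libraries and 1040 ± 160 FPKM in saline libraries (SD, n = 4 each; −0.56 ± 0.14, adjusted p = 0.0615). Serping1 had 2.34, 3.73, 1.42 and 1.74 FPKM in morphine libraries, against 19.7, 5.26, 16.3 and 2.89 FPKM in saline libraries (−1.60 ± 0.48, adjusted p = 0.102). The groups are separate in Clu and overlap in Serping1. C1ql3, a C1q-like gene, was higher, at 6.28 to 16.9 FPKM in morphine libraries and 0.78 to 5.41 FPKM in saline libraries. Its groups are separate (1.39 ± 0.40, adjusted p = 0.0932). Cfd, the gene for factor D, was listed at 0 in all 8 libraries.

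The intracellular relays and further microglial lists held no calls. Of 28 listed genes of the Toll-like receptor relay 19 were tested, with 3 positive and 16 negative changes, a median of −0.13, and 0 calls (3 at an unadjusted p under 0.05). The smallest p there belonged to Nfkbia, an inhibitor of NF-kappa-B (−0.34 ± 0.13, limma adjusted p = 0.188). Of 18 genes of the ITAM relay 12 were tested, with a median of −0.11 and 0 calls (2 unadjusted), led by the adaptor gene Pik3ap1 (−0.47 ± 0.16, adjusted p = 0.147). Of 30 further homeostatic microglial genes 28 were tested, with 11 positive and 17 negative changes, a median of −0.06 and 0 calls (4 unadjusted). There Itgb5, an integrin chain gene, came first (−0.43 ± 0.13, adjusted p = 0.108). Of 19 genes known to mark disease-associated microglia 16 were tested, with 5 positive and 11 negative changes, a median of −0.25 and 0 calls. In this list 7 genes had an unadjusted p under 0.05 in limma, beside 20.1% of all tested genes. The groups were separate with morphine lower in 6 genes and higher in 0, beside 6.1% and 6.56% of all tested genes. There the tetraspanin gene Cd9 had the smallest p (−0.43 ± 0.11, adjusted p = 0.0631), and Cd9, like Apoe and several others of that list, is also expressed by astrocytes and other cells.

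**Figure D4:**
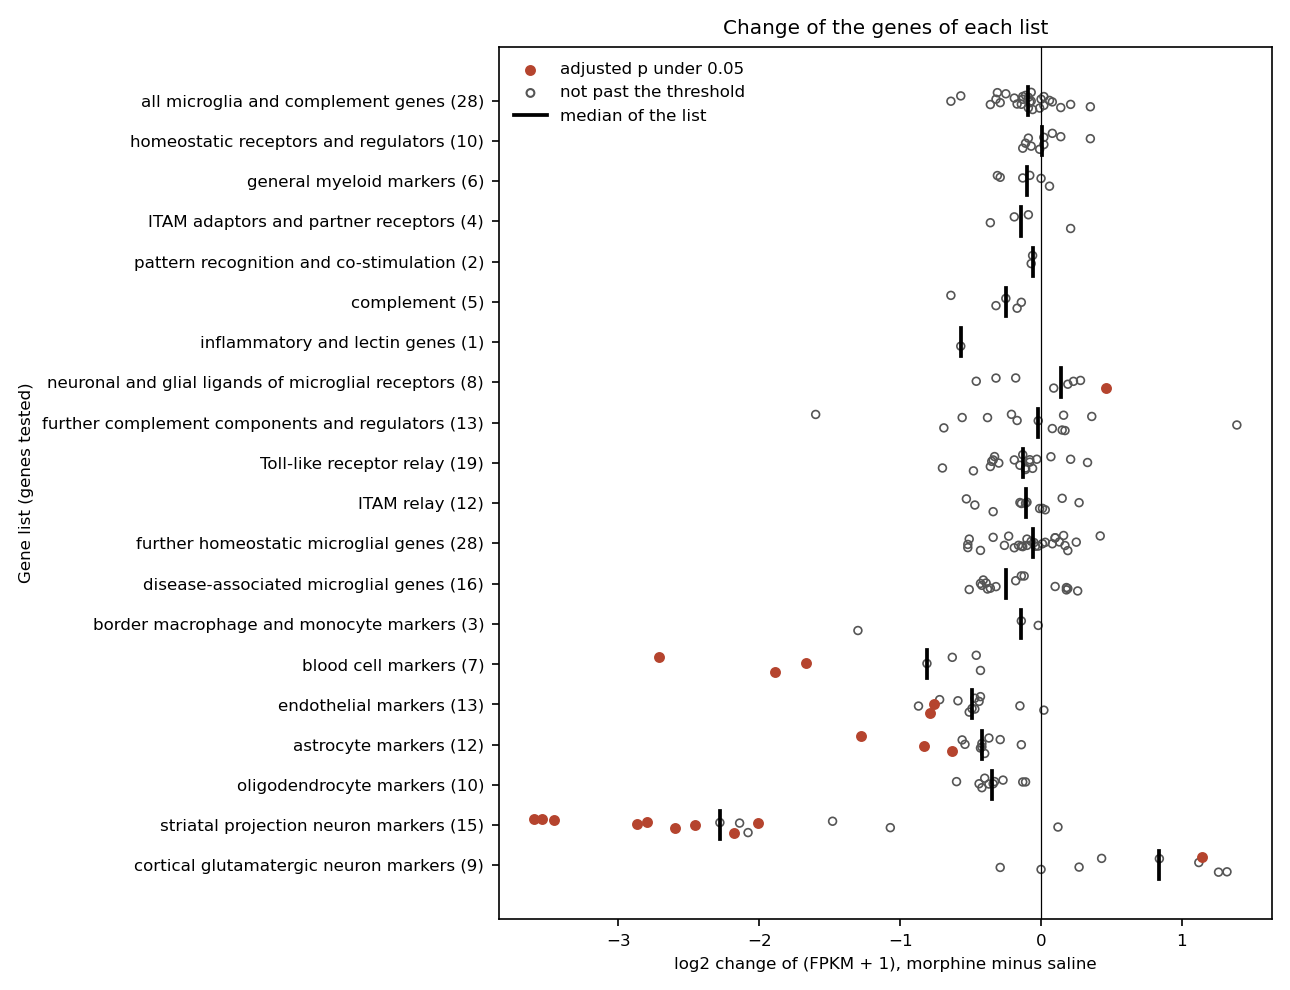
log2 change of (FPKM + 1), morphine minus saline, of every tested gene of each list (circles, filled where the limma adjusted p was under 0.05), with a black bar at the median of the list and the number of genes tested in brackets. The microglia and complement genes have a median of −0.09 and no filled circle, while the astrocyte, endothelial and striatal neuron lists have medians of −0.42, −0.49 and −2.28.

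Markers of other cell types moved in the same libraries, and their part in the values above was not tested. The median log2 change was −0.42 over 12 astrocyte markers (3 lower), −0.49 over 13 tested endothelial markers (2 lower), −0.35 over 10 oligodendrocyte markers (0 called, 5 at an unadjusted p under 0.05 in limma) and −0.81 over 7 tested blood cell markers (3 lower). Over 15 striatal projection neuron markers the median was −2.28 (9 lower), the largest shift of these lists. Whether these medians differ from that of the microglia and complement genes was not tested. Summed astrocyte marker FPKM was 1570 to 1960 in morphine libraries and 2280 to 2980 in saline libraries. Summed endothelial marker FPKM was 147 to 171 in morphine libraries and 212 to 231 in saline libraries. Summed oligodendrocyte marker FPKM was 2020 to 3210 in morphine libraries and 3230 to 3670 in saline libraries, and summed blood marker FPKM was 58.9 to 308 in morphine libraries and 142 to 381 in saline libraries. No marker of these lists was at 0 in all 8 libraries. The blood markers that fell were the neutrophil genes S100a8 (log2 change −2.71 ± 0.52 SE), S100a9 (−1.89 ± 0.41) and Ngp (−1.67 ± 0.33), with limma adjusted p of 0.0319, 0.0449 and 0.0365. Of 14 alternative settings S100a8 passed in 8, S100a9 in 4 and Ngp in 7, and all 3 kept their direction. For S100a8 the adjusted p was 0.0599, 0.111 and 0.0848 without morphine replicates 2, 3 and 4, and 0.0601 and 0.0907 without saline replicates 1 and 2. For Ngp it was 0.0761, 0.123 and 0.0928 without morphine replicates 2, 3 and 4, and 0.0767 and 0.0813 without saline replicates 1 and 2. For S100a9 it was 0.0711, 0.0708, 0.136 and 0.114 without morphine replicates 1 to 4, and 0.0789 and 0.112 without saline replicates 1 and 2. Neutrophils also express Fcer1g, Tyrobp, Itgam and Cd14, and S100a8 had 2.34, 1.52, 0.30 and 0 FPKM in morphine libraries, against 27.6, 14, 4.08 and 8.19 FPKM in saline libraries. The highest S100a8 values are in saline replicates 1 and 2, as they are for Tyrobp and for the C1q chain genes. Fcer1g and Cd14 were highest in morphine replicate 2, at 50.8 and 4.51 FPKM, and Itgam in morphine replicate 3, at 7.27 FPKM. Next came saline replicate 1 for Fcer1g (46.0 FPKM) and saline replicate 2 for Cd14 (4.27 FPKM). Itgam had 7.21 FPKM in saline replicate 2. The part of neutrophils in these values was not tested.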

How the data were processed

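Total RNA was copied from an oligo-dT primer with template switching and amplified by PCR, per the labels' protocols, which name no molecular identifiers and no strand marking. The authors deposited FPKM values, 1 column per library and rounded to 2 decimals. fastp 0.18.0, Bowtie2 2.2.8, HISAT2, StringTie 1.3.1, RSEM and mm10 are named, without roles, per the submitters' processing notes. Depth could not be recovered: set against the lowest nonzero value of their gene, 19.7% of 7958 low values fell within 0.1 of a whole number, and an even spread gives 20%. Of 22337 Ensembl identifiers 22232 matched GENCODE M21 (GRCm38), which gave symbols and coordinates (1-based).

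Values were taken as log2(FPKM + 1), which understates changes of low genes. The filter kept genes that reached an FPKM of 1 in 4 or more libraries, and limma 3.58.1 (R 4.3.3) was fitted to them (mean-variance trend, two-sided, Benjamini-Hochberg over all 12536 genes), morphine against saline, without a block. The interval is limma's 95% interval. On data simulated for these 12536 genes, in 10 runs, 75.7% of genes changed by 1 and 97.1% of those changed by 2 (log2) were found, with 4.75% false calls. Each gene was drawn independently with its fitted spread, so variation shared by the genes of a library was not simulated. Smaller changes were not simulated either, and those of the 28 tested genes lay between −0.64 and 0.35. Alternatives were another pseudocount (0.1), other filters (none, FPKM of 5), 2 other scalings, no trend, a replicate block and leaving out each library. The genes and lists were chosen with earlier results of these data known. Every one of the 38 genes is reported; of other lists, those past the threshold or with the smallest p are named, except for 1 gene that is not reported here, and 5 ligand or co-receptor genes in any case.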

Additional observations from a re-analysis of the deposited data

Results flagged for a closer look

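Among 56 groups of 4 libraries (28 tested genes in 2 treatments), 5 held a library far from the others, where chance gives about 1 in 20. P2ry12 was highest in morphine replicate 2, at 58.4 FPKM, and the other morphine libraries lay between 48.5 and 49.8. Aif1 was lowest in morphine replicate 4, at 7.70 FPKM, with the others between 11.9 and 12.7. Itgam was lowest in the same library, at 5.27 FPKM, with the others between 6.93 and 7.27. C1qa was lowest in morphine replicate 2, at 69.1 FPKM, with the others between 79.1 and 81.2. Cd68 was lowest in saline replicate 4, at 12.7 FPKM, with the others between 18.2 and 18.8.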

How the results depend on the processing

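In each of the 15 alternative settings 0 of the microglia and complement genes were called (limma, 1 to 5 at an unadjusted p under 0.05). Their median log2 change, −0.093 in the reported fit, lay between −0.19 and −0.058 when 1 library was left out and between −0.154 and −0.093 otherwise. Of the 28 tested genes, 17 kept the sign of their change in every setting. The number of genes called in the whole table, 316 as reported, was less stable. It was 17 without a filter on low values, 5 with the replicate block, and 0 to 450 when 1 library was left out. It was 0 without morphine replicate 3, morphine replicate 4 or saline replicate 2 (1953, 2136 and 2005 at an unadjusted p under 0.05). The cause was not tested. The correlations of the deviations of same-numbered libraries from the group means were 0.052, 0.037, −0.059 and −0.205 over genes. No pairing by replicate number was seen, but with 4 libraries per group these correlations cannot exclude it. Only morphine replicate 2 correlated best with the library of its own number, and the block left the member count at 0. Depth is unknown, and for the 10 genes too low to test, their low values limit what could be seen.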
